A study of Mus musculus with 17 samples.

Results

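Homeostatic microglia genes are genes that the resident macrophages of the brain express strongly while they survey healthy tissue. Here they were 9 named genes, P2ry12, Tmem119, Cx3cr1, Csf1r, Sall1, Siglech, Fcrls, Olfml3 and Aif1, out of 24498 gene symbols in the count table. They were chosen by name and not by a cutoff on any measured value, but with earlier results of these data known. All 9 were in the table, and all 9 passed the filter on low counts in each fit, with 93 to 2872 reads per gene and library.

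Poly(A) RNA was sequenced from slices of mouse dorsal hippocampus in 17 libraries that formed 6 groups. The mice were wild type (WT) or constitutive knockouts (KO) of Acss2, whose product ACSS2 converts acetate to acetyl-CoA. The WT and KO animals descended from crosses of homozygous offspring of heterozygous breeders. Each mouse was injected in the dorsal hippocampus at 6 months of age, either with pathological tau that had been purified as a sarkosyl-insoluble fraction from frontal cortex of people with Alzheimer's disease (Tau) or with phosphate-buffered saline (PBS). Per the study's methods, tissue was taken 6 months later, so all groups shared surgery and age. The 12 male libraries were split evenly over WT PBS, WT Tau, KO PBS and KO Tau (n = 3 each), and the 5 female ones over WT Tau (n = 2) and KO Tau (n = 3). Without females given PBS, the effect of tau in females was not measured in these libraries. A number such as 711 is the label of 1 library. The labels call the replicates biological but give no dissection or sequencing date, so differences between the sexes and differences between unlabelled batches cannot be told apart.

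Microglia depend on signaling through the receptor Csf1r and on transforming growth factor beta, and the transcription factors PU.1 (encoded by Spi1) and Sall1 maintain their identity. In the healthy brain they carry P2ry12, a receptor for nucleotides, and Cx3cr1, the receptor for the neuronal chemokine Cx3cl1. Around plaques, dying cells or aggregated protein, microglia are known to lower such homeostatic genes and to raise a set of activation genes, among them Cst7, Clec7a and Itgax. Because bulk tissue was sequenced, fewer microglia and less RNA per microglial cell cannot be told apart in any of the values.

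Total counts ran from 14183131 to 22463635 per library, and values are given as counts scaled to a library total of 1000000 (CPM). Acss2 itself checked the genotype labels, with 44.0 to 54.6 CPM in the WT libraries and 3.07 to 8.81 CPM in the KO libraries. The libraries were not uniform within groups. Male KO Tau 711 had a summed level of 9 astrocyte genes of 8117 CPM, against 4406 to 5228 CPM in the other 11 male libraries and 8638 to 9709 CPM in the females. Male KO Tau 713 held 4112 CPM of 12 choroid plexus genes, against at most 602 CPM in the other libraries, and female KO Tau 325 held 48.1 CPM of 10 blood leukocyte genes. Male KO PBS 752 held 475 CPM of 9 striatum genes, against 73.4 to 172 CPM in the other libraries. Results that rest on 711 are therefore given with and without it.

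The members lie on several chromosomes of the GRCm38 assembly, per the GENCODE annotation. P2ry12 spans chr3:59216272-59262871 on the minus strand and lies inside Med12l, which is on the opposite strand. Fcrls (chr3:87250758-87263738) and Olfml3 (chr3:103722222-103738001) are on the minus strand of the same chromosome. Tmem119 lies at chr5:113793729-113800516, Siglech at chr7:55768178-55778925, Sall1 at chr8:89027235-89044162 and Aif1 at chr17:35170991-35176068. The annotated span of Cx3cr1, chr9:119901616-120069879, includes several other genes. The 3′ end of Csf1r overlaps Hmgxb3 on the opposite strand. The authors counted reads over exons in reverse-stranded mode, while the labels do not say whether the library kit kept the strand, so reads of Med12l or Hmgxb3 within P2ry12 or Csf1r may have been counted differently than intended. All 9 genes are protein coding.

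PU.1 belongs to the ETS family, whose members bind DNA around a GGAA core, so the start regions of the members were searched for AGGAAG on either strand. RefSeq start regions of GRCm38.p6, each from 250 bases before to 50 bases after a start, were at hand for 7 of the 9 genes. The windows of 3 genes are printed because they belong to the genes that the results turn on: Fcrls and Aif1, which passed the test between the sexes, and P2ry12, whose levels in females and males overlapped widely. They are chr3:87263475-87263774 (Fcrls), chr17:35176003-35176302 (Aif1) and chr3:59262936-59263235 (P2ry12), written 5′ to 3′ on the minus strand, which is the sense strand of each gene. Capitals mark AGGAAG or its reverse complement.
Fcrls: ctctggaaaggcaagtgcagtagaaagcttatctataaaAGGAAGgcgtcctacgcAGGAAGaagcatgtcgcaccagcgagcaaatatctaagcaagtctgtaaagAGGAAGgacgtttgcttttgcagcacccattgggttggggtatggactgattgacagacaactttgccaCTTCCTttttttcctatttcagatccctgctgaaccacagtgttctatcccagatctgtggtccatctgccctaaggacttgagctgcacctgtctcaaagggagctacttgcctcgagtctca
Aif1: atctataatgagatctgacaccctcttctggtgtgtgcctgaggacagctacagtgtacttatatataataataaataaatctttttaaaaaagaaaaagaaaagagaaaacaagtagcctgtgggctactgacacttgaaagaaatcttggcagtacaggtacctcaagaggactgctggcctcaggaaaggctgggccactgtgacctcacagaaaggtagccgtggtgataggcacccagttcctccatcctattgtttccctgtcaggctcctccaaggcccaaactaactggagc
P2ry12: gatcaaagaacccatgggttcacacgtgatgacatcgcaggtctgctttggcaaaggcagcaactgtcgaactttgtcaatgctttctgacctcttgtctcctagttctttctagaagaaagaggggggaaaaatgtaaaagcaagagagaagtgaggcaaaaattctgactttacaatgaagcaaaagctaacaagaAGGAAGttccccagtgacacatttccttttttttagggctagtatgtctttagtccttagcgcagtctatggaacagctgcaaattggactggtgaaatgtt
The window of Fcrls held 4 matches, with first bases at -211, -194, -143 and -74 relative to the start, the last on the reverse strand. P2ry12 held 1 match at -52, and Aif1 held none. Sall1 (1 of 3 windows) and Olfml3 held 1 each, and Cx3cr1 and Siglech none. A match was thus found in 4 of 7 genes, or 4 of the 9 windows searched. Among all 32851 RefSeq windows of this length 35.4% held AGGAAG and 3.2% held the longer GAGGAAGT, which none of the members' windows held. These are matches of letters and not measured binding.

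To compare levels between genes, mean CPM was divided by the merged exon length of each gene. Per kilobase, Csf1r was the highest member at 19.3 ± 2.38 (SD, n = 17 libraries), followed by Cx3cr1 at 15.9 ± 1.64, P2ry12 at 14.2 ± 2.41, Fcrls at 12.9 ± 3.05 and Tmem119 at 12.5 ± 1.73. The other members were lower, with Aif1 at 5.33 ± 2.11, Siglech at 5.13 ± 1.01, Sall1 at 4.60 ± 0.658 and Olfml3 at 4.28 ± 0.966. The gaps between Csf1r and Cx3cr1 and between Tmem119 and Aif1 were larger than the SD of either gene. Other neighbours in this order differed by less than the larger of their SDs. The spread between libraries was uneven. The coefficient of variation over 17 libraries was 10.3% for Cx3cr1, 12.3% for Csf1r, 13.9% for Tmem119, 14.3% for Sall1, 16.9% for P2ry12 and 19.7% for Siglech, but 22.6% for Olfml3, 23.6% for Fcrls and 39.5% for Aif1.

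**Figure D1:**
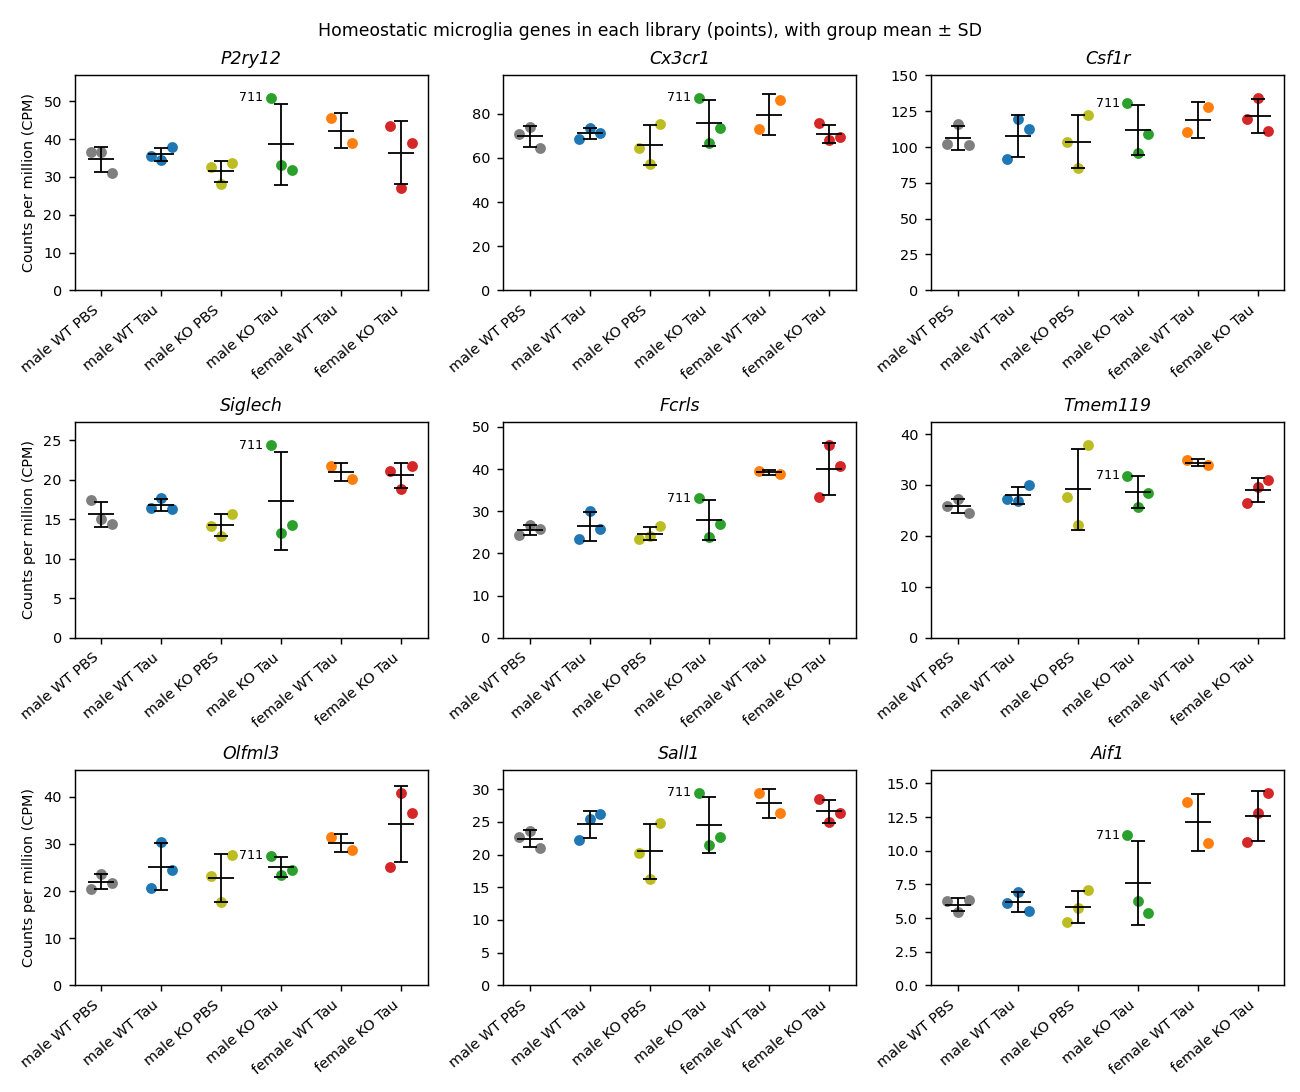
CPM (y axis, from 0) of the 9 genes in each library (points) of the 6 groups (x axis), with the mean ± SD of each group and library 711 labelled. In the 5 pairs of male groups compared, the libraries overlap for each gene, and Fcrls in the 5 females, at 33.4 to 45.7 CPM, lies above the 12 male libraries, at 23.4 to 33.1 CPM.

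The design first asks what tau and loss of Acss2 do to these genes in males. No member passed the test in any of the 5 pairs of male groups compared. In male WT Tau against male WT PBS the 9 log2 fold changes ran from 0.00 (Csf1r) to 0.18 (Olfml3), with a median of 0.04 (0.11 without male WT Tau 771). In male KO PBS against male WT PBS they ran from -0.09 (P2ry12) to 0.23 (Tmem119), with a median of -0.00056 and 4 of 9 above 0. This median rested on single libraries, being -0.12 with 1 of 9 above 0 without male KO PBS 753 and 0.056 with 7 of 9 above 0 without 752. With the edgeR quasi-likelihood test, 0 of 9 members passed a false discovery rate (FDR) of 0.05 in either comparison, and 0 had an unadjusted p under 0.05. DESeq2 also called 0. The background was as low, since 0% of the 15098 genes tested passed in the first comparison and 0.00662% (1 gene) in the second, so the members' count says nothing particular about them. Both comparisons share the male WT PBS libraries.

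P2ry12 showed how close the male groups were. Its levels were 36.6, 36.5 and 30.9 CPM in male WT PBS 791, 792 and 793 and 35.6, 34.5 and 37.9 CPM in male WT Tau 771, 772 and 773. In the knockouts they were 32.6, 28.2 and 33.6 CPM in male KO PBS 751, 752 and 753 and 51.0, 33.2 and 31.7 CPM in male KO Tau 711, 712 and 713. Library 711 was the highest of all 17, and the other 11 males lay between 28.2 and 37.9 CPM. The log2 fold change was 0.04 (SE 0.17, FDR 1.00) for tau in WT males and -0.09 (SE 0.17, FDR 0.999) for the knockout under PBS.

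Csf1r, the receptor on which microglial survival depends, was measured in the males at 106 ± 8.34 CPM (SD, n = 3) for WT PBS, 108 ± 14.5 for WT Tau, 104 ± 18.6 for KO PBS and 112 ± 17.3 for KO Tau. These means differed by less than the SD of the latter 3 groups. Cx3cr1 gave 69.8 ± 4.86, 71.1 ± 2.47, 65.7 ± 9.12 and 76.0 ± 10.4 CPM in the same order. Siglech, a sialic acid-binding surface receptor, gave 15.6 ± 1.56, 16.8 ± 0.767, 14.2 ± 1.41 and 17.3 ± 6.13 CPM. In all 3 genes male KO PBS had the lowest mean and male KO Tau the highest, and the libraries overlapped in each of the 5 pairs compared. Sall1, a transcription factor that marks microglia among brain macrophages, gave 22.4 ± 1.27, 24.6 ± 2.04, 20.5 ± 4.27 and 24.6 ± 4.30 CPM.

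The male KO Tau group was compared with each other male group, since the study set out to examine the combination of tau and the absence of Acss2. The study's own test used fewer male KO Tau libraries than are analysed here, and which was left out is not given in the sources used here. Against the PBS-injected WT males the 9 log2 fold changes were all above 0, from 0.08 (Csf1r) to 0.35 (Aif1), with a median of 0.15. Against male WT Tau they ran from 0.02 (Olfml3) to 0.31 (Aif1) with a median of 0.07, and against male KO PBS from -0.07 (Tmem119) to 0.33 (Aif1) with a median of 0.16. None passed: 0 of 9 were called in each of the 3 comparisons and in the genotype by treatment interaction, and 0 had an unadjusted p under 0.05. The smallest FDR among the members in the 4 comparisons was 0.711, for P2ry12 in male KO Tau against male KO PBS. DESeq2 called 0 of 9 as well. Over all genes 0.00662% passed against male WT PBS, 0.00662% against male WT Tau, 0% against male KO PBS and 0% in the interaction. These comparisons share the male KO Tau libraries, so their values are not independent of each other.

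The positive fold changes rested on library 711. It was the highest of the 12 male libraries in 7 of 9 members (P2ry12, Cx3cr1, Csf1r, Sall1, Siglech, Fcrls and Aif1), and male KO PBS 752 was the lowest in 7 of 9 (the exceptions being Fcrls and Aif1, lowest in 751). The summed level of the 9 genes was 426 CPM in 711, against 269 to 371 CPM in the other 11 male libraries. Without 711 the median log2 fold change of the members was -0.02 against male WT PBS, with 3 of 9 above 0. It was -0.06 against male WT Tau, with 0 of 9 above 0, and -0.01 against male KO PBS, with 3 of 9 above 0. With 711 kept, the median against male KO PBS was 0.077 without 752 and 0.26 without 753. Library 711 also had the highest astrocyte sum and the highest sum of 8 nuclear-retained RNAs among the males, 6492 CPM against 2431 to 5185 CPM. Library 752 had the highest striatum sum of all libraries, 475 CPM. The part of these differences in the members' levels was not tested.

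The precision bounded what could have been seen. In the 5 comparisons of male groups the 95% intervals of all 9 members lay within a 2-fold change in either direction. For tau in WT males the widest interval ran from 0.697-fold to 1.50-fold (Aif1), and for male KO Tau against male WT PBS the lowest bound was 0.824-fold (Siglech) and the highest 1.86-fold (Aif1). In the interaction 8 of 9 intervals stayed within 2-fold, and that of Aif1 reached 2.11-fold. Changes of a size that these intervals still cover may have been missed.

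**Figure D2:**
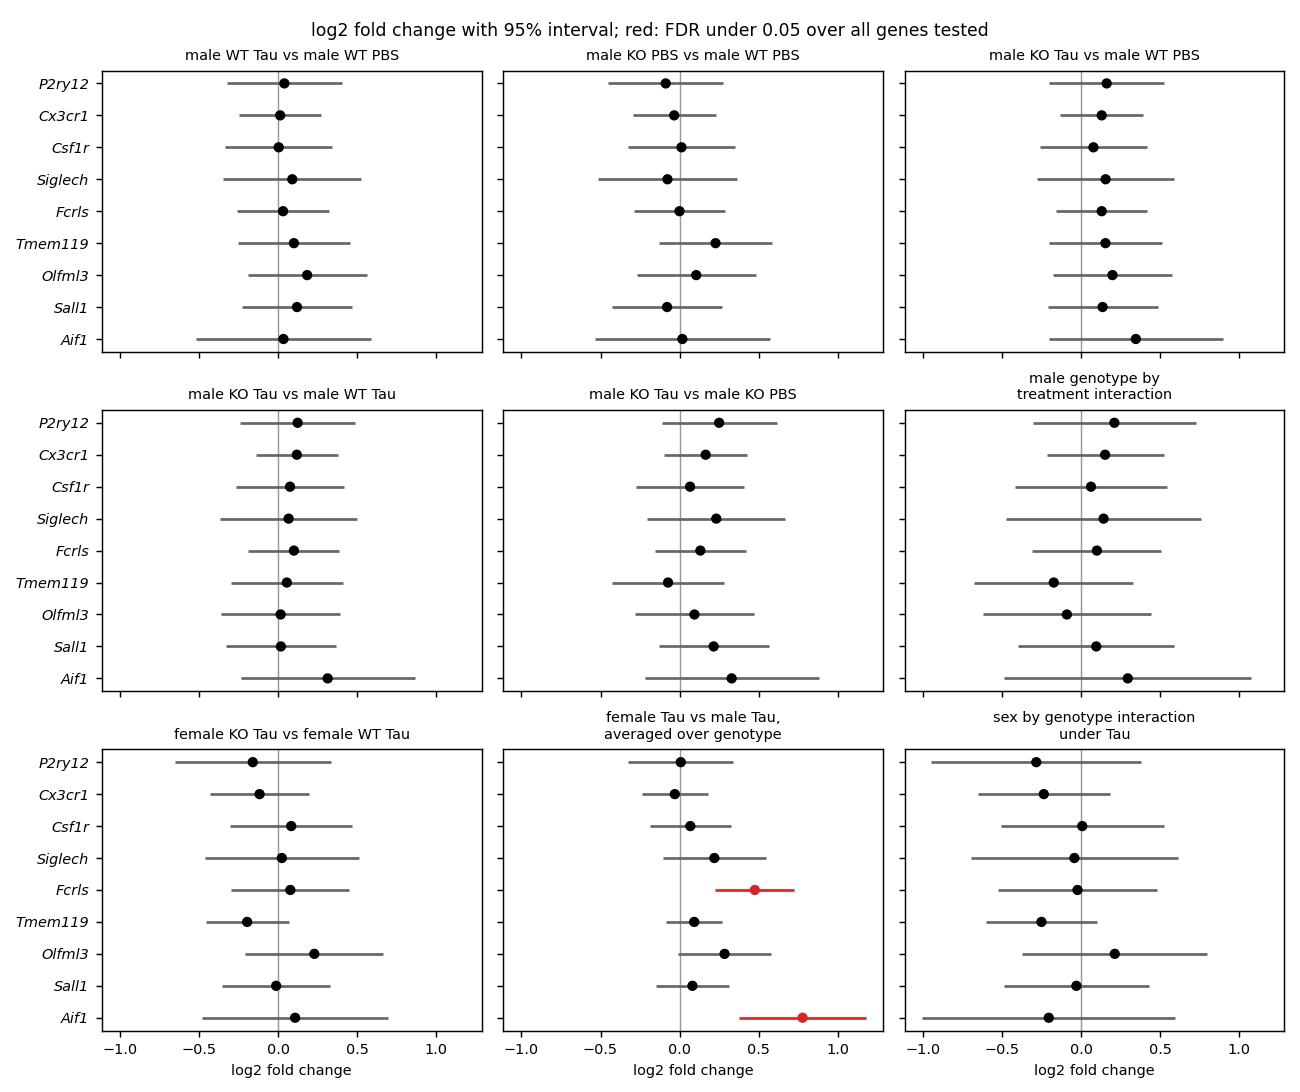
log2 fold change (x axis, point) with its 95% interval (line) of each of the 9 genes (y axis) in the 9 comparisons (panels), from the edgeR fits. Only Fcrls and Aif1 in female Tau against male Tau (red) pass the FDR of 0.05, and each interval in the 5 panels that compare male groups crosses 0.

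In females the knockout was compared with WT under tau. Tmem119, a transmembrane protein used as a microglial marker, was the one member whose groups did not overlap. It gave 34.9 and 33.9 CPM in female WT Tau 331 and 341 and 26.5, 29.5 and 31.0 CPM in female KO Tau 314, 324 and 325. Over all genes tested 10.3% were lower without overlap in this comparison of 3 with 2 libraries, and the log2 fold change of Tmem119, -0.20 (SE 0.12), did not pass (FDR 0.997). The other 8 members overlapped, with log2 fold changes from -0.16 (P2ry12) to 0.23 (Olfml3). Again 0 of 9 were called, 0 had an unadjusted p under 0.05 and DESeq2 called 0, against 0.00649% of the 15419 genes tested, and all 9 intervals lay within 2-fold. The difference of the genotype effect between the sexes under tau was tested as an interaction. It called 0 of 9 members (0% of all genes), with log2 values from -0.28 (P2ry12) to 0.21 (Olfml3), and 0 had an unadjusted p under 0.05. The median of these values was -0.042, with 2 of 9 above 0. Without male KO Tau 711 it was 0.14, with 6 of 9 above 0.

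Female and male mice injected with tau were then compared, averaged over genotype. The labels allow this, although the study states that its bulk RNA-seq used males and its single-cell and behavioral work females. Fcrls and Aif1 were higher in females and the other 7 members did not pass. The called share, 2 of 9, was close to the background, as 23.8% of the 15419 genes tested passed the same FDR, 1757 higher and 1917 lower in females. The count is therefore no result about the members as a group. Over all 6 groups the F-test called the same 2 genes (Fcrls, FDR 0.0133, and Aif1, FDR 0.0119), against 19% of 15594 genes.

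Fcrls, an Fc receptor-like scavenger receptor found on mouse microglia, was measured at 39.6 and 38.8 CPM in female WT Tau 331 and 341 and at 33.4, 45.7 and 40.7 CPM in female KO Tau 314, 324 and 325. In males given tau it was at 23.4, 30.1 and 25.8 CPM (WT 771, 772 and 773) and 33.1, 23.8 and 26.9 CPM (KO 711, 712 and 713). In male WT PBS it was at 24.4, 26.7 and 25.8 CPM and in male KO PBS at 23.4, 24.2 and 26.4 CPM. All 5 females were above all 12 males, with the narrowest gap between female 314 and male 711. No other member separated the sexes in this way, and 5.39% of all genes did so in the same direction. The log2 fold change was 0.48 (SE 0.11, FDR 0.0164), a fold of 1.39 with a 95% interval from 1.17 to 1.65.

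Aif1 encodes Iba1, a calcium-binding protein of the cytoplasm that is the usual stain for microglia and other macrophages. It was at 13.6 and 10.6 CPM in female WT Tau and at 10.6, 12.8 and 14.3 CPM in female KO Tau. The 3 male WT Tau libraries held 6.14, 6.96 and 5.51 CPM and the male KO Tau libraries 11.2, 6.25 and 5.41 CPM. The PBS males held 6.25, 5.42 and 6.32 CPM (WT) and 4.72, 5.74 and 7.09 CPM (KO). With the exception of 711, whose 11.2 CPM fell within the female range, the 11 other males lay at 4.72 to 7.09 CPM, below every female. The log2 fold change was 0.78 (SE 0.18, FDR 0.0155), a fold of 1.71 with an interval from 1.30 to 2.26.

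Neither call held within a single genotype. Within WT the log2 fold change was 0.49 for Fcrls (FDR 0.140) and 0.88 for Aif1 (FDR 0.124), and within KO it was 0.46 (FDR 0.0778) and 0.68 (FDR 0.101), sizes close to the average over both. Without female WT Tau 331, the call was lost for Fcrls (0.48, FDR 0.0649) and Aif1 (0.70, FDR 0.0766), and the number of genes called overall went from 3674 to 628. Without male KO Tau 711 both values rose, to 0.57 (FDR 0.00199) for Fcrls and 0.99 (FDR 0.000318) for Aif1. Siglech then passed as well, at 0.40 (FDR 0.00240) against 0.22 (SE 0.15, FDR 0.288) with 711 included. Its levels were 21.8 and 20.1 CPM in female WT Tau, 21.1, 18.8 and 21.8 CPM in female KO Tau. The males given tau had 16.4, 17.6 and 16.2 CPM (WT) and 24.3, 13.2 and 14.3 CPM (KO). Library 711 was thus the highest of all 17 for Siglech, and the other male Tau libraries were below the females.

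Olfml3, a secreted olfactomedin-like protein, gave 31.5 and 28.8 CPM in female WT Tau and 25.2, 40.9 and 36.5 CPM in female KO Tau. Males given tau had 20.6, 30.5 and 24.5 CPM (WT) and 27.5, 23.3 and 24.5 CPM (KO), so that the sexes overlapped. Its log2 fold change of 0.28 (SE 0.13) did not pass (FDR 0.133), and the interval ran from 0.995-fold to 1.49-fold. Without female KO Tau 314 it did pass, at 0.38 (FDR 0.0457).

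The 5 other members were close to equal between the sexes. The log2 fold changes were 0.09 (SE 0.08) for Tmem119, 0.08 (SE 0.10) for Sall1, 0.07 (SE 0.12) for Csf1r, 0.01 (SE 0.15) for P2ry12 and -0.03 (SE 0.10) for Cx3cr1, with the lowest bound at 0.799-fold and the highest at 1.27-fold, both for P2ry12. Means ± SD in female WT Tau (n = 2) and female KO Tau (n = 3) were 42.3 ± 4.64 and 36.5 ± 8.38 CPM for P2ry12, 79.7 ± 9.41 and 71.0 ± 4.11 CPM for Cx3cr1, 119 ± 12.5 and 122 ± 11.9 CPM for Csf1r, and 27.9 ± 2.19 and 26.6 ± 1.75 CPM for Sall1. P2ry12 was uneven among the female knockouts, at 43.4, 27.1 and 38.9 CPM, and 324, the lowest of all 17 libraries for P2ry12, was the highest of all for Csf1r, Fcrls and Olfml3. The female over male values of all 9 members were also taken within each genotype. Their median was 0.18 within WT, with 9 of 9 above 0, and 0.07 within KO, with 6 of 9 above 0. Without 711, averaged over genotype, it was 0.18 with 9 of 9 above 0. Whether the genotypes differed in this was tested only as the interaction given above. That interaction called 0 of 9 members, and its median changed sign without 711.

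**Figure D3:**
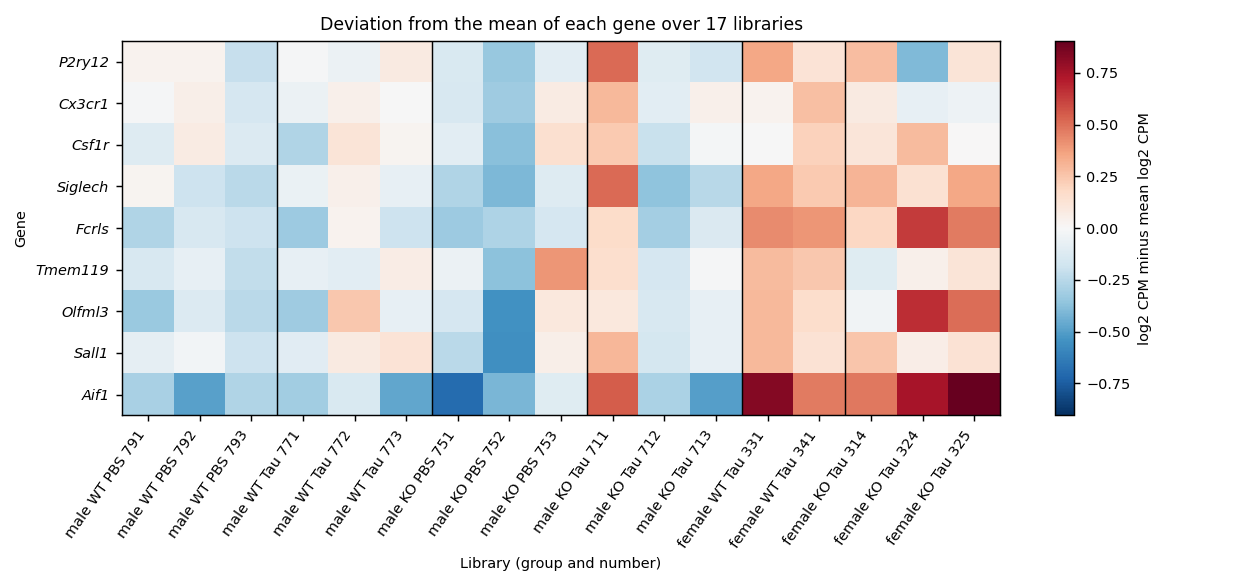
Color scale of log2 CPM minus the mean of the gene over 17 libraries, for 9 genes (rows) in each library (columns, by group). Column 711 is above average in all 9 rows and column 752 below average in all 9, and Fcrls and Aif1 are above average in all 5 females.

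The summed level of the 9 genes was 384 to 412 CPM in the females, above the 11 male libraries other than 711. These sums were scaled to library totals and not by the TMM factors that the tests used. Those factors were 1.08 for females 325 and 331 and 0.974 for male KO PBS 753. With them the sum of 753 would lie above those of 325 and 331. The mean log2 CPM of the members, with the factors, was 5.08 to 5.14 in the females and 4.98 in 753.

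The signals that sustain these genes were examined as a list of 16 ligands, receptors, transcription factors and activators. In the male comparisons, the female genotype comparison and the 2 interactions 0 of 16 passed. Between female and male Tau 5 rose and 2 fell, 7 of 16 against the background of 23.8%. Cx3cl1, the neuronal ligand of Cx3cr1, fell by 0.87 on the log2 scale (SE 0.17, FDR 0.00912), and Il34, a neuronal ligand of Csf1r, fell by 0.59 (SE 0.16, FDR 0.0267). The other ligand of this receptor, Csf1, did not pass (0.17, FDR 0.322). Genes of transforming growth factor beta signaling were among those that rose: the receptors Tgfbr1 (0.52, SE 0.14, FDR 0.0216) and Tgfbr2 (0.29, SE 0.09, FDR 0.0463), Nrros, which anchors the latent ligand on microglia (0.48, SE 0.15, FDR 0.0420), and Itgb8, an integrin chain that activates it (0.68, SE 0.16, FDR 0.0143). The transcription factor Runx1 rose by 0.93 (SE 0.25, FDR 0.0249). Spi1 (0.42, FDR 0.0960), Irf8 (0.36, FDR 0.0766), Tgfb1 (0.14, FDR 0.434), Itgav (0.24, FDR 0.141), Smad2 (-0.20, FDR 0.226), Smad3 (-0.32, FDR 0.0520) and Smad4 (-0.01, FDR 0.938) did not pass.

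Cx3cl1 was at 314 and 434 CPM in female WT Tau and at 384, 372 and 350 CPM in female KO Tau. In males given tau it was at 603, 634 and 716 CPM (WT) and at 422, 748 and 785 CPM (KO), where 711 again lay within the female range. Its receptor Cx3cr1 did not pass in the same comparison.

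Other microglia genes and activation genes gave larger values between the sexes than the members did. Of all genes tested in this comparison 23.8% passed. Of 20 other microglia genes 10 rose (among them Gpr34, C1qb, Ctss, Ly86, Tyrobp, C1qa, Cd33, C1qc and Cd53) and 0 fell, with a list median of 0.47, whereas the median of the 9 members was 0.09 and that of all genes tested -0.01. Without 711 the median of the members was 0.18, with 9 of 9 above 0 against 8 of 9 with it. The medians of the other lists were not recomputed without 711. C1qa, a chain of the first complement component, was at 110 and 97.5 CPM in female WT Tau and 70.6, 97.1 and 99.4 CPM in female KO Tau, against 48.6, 55.9 and 46.2 CPM (WT) and 64.3, 51.6 and 56.6 CPM (KO) in males given tau. Of 17 activation genes tested 8 rose and 0 fell, among them Cst7 (2.58, SE 0.39, FDR 0.00470), a cystatin, and Clec7a (2.27, SE 0.39, FDR 0.00655), a receptor for fungal glucans. Cst7 was scarce, at 0.71 to 3.18 CPM in females and 0.16 to 0.56 CPM in males given tau. Whether the lists differed from each other was not tested. In all other comparisons 0 genes of these lists passed, and the same held for each of the lists of other cell types.

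Some markers of other cells moved in the same comparison and their part in the members' values was not tested. The counts below stand against the 23.8% of all genes tested that passed, and those of several lists lie below that share. Of 10 border macrophage genes 6 rose (such as Mrc1 and Cd163), with a summed level of 39.2 to 57.2 CPM in females against 19.7 to 33.6 CPM in males, 711 (26.7 CPM) included. Of 4 blood leukocyte genes tested 3 rose (Ccr2, S100a8 and S100a9), their list sum being 4.65 to 48.1 CPM in females and 0.862 to 4.69 CPM in males. Aif1 is also expressed by such macrophages and monocytes. Of 9 astrocyte genes 6 rose, led by Gfap (1.70, SE 0.31, FDR 0.00772), and of 10 endothelial genes 6 rose. Further lists gave 4 of 10 genes of mural cells and fibroblasts, 4 of 8 of thalamus, 1 of 10 of oligodendrocytes, 1 of 8 nuclear-retained RNAs and 1 of 1 of erythrocytes higher, 2 of 7 of CA1 pyramidal cells lower, and 0 of 12 of choroid plexus, 0 of 10 of dentate granule cells and 0 of 8 of striatum called.

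**Figure D4:**
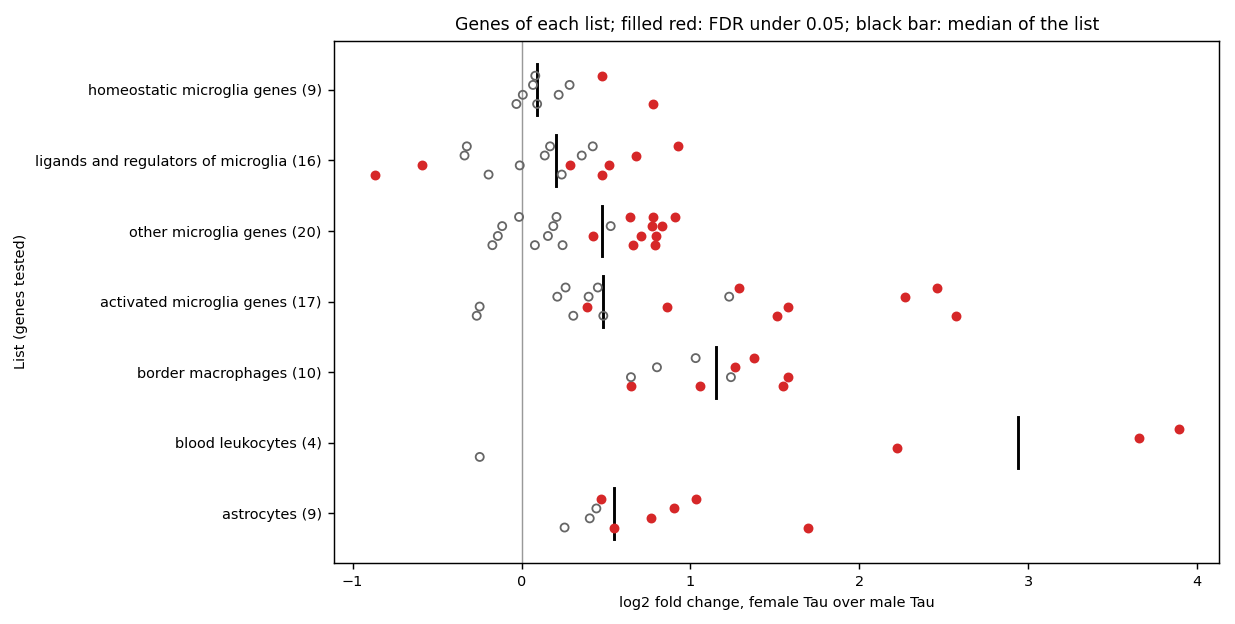
log2 fold change of female Tau over male Tau (x axis) for each tested gene of 7 lists (y axis, number tested in brackets), red where the FDR of 0.05 was passed, with the list median as a black bar. With 711 included, the 9 homeostatic genes center near 0, with a median of 0.09. The medians of other microglia genes and activation genes then lie at 0.47 and 0.48. Without 711 the median of the 9 genes is 0.18, and the medians of the other lists were not recomputed.

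The members varied together across libraries. Over the 36 pairs of members the Pearson correlation of log2 CPM over 17 libraries had a median of 0.58, from 0.02 (P2ry12 with Olfml3) to 0.91 (Fcrls with Aif1), and 0.54 over the 16 libraries without 711. For deviations from the group means the median was 0.51. These are descriptions, since the libraries share sex, depth and tissue composition. Siglech (0.88) and Sall1 (0.84) followed the mean of the other 8 members most closely and P2ry12 (0.45) least. Fcrls, Aif1 and Olfml3 correlated with each other at 0.71 to 0.91, and each of them at 0.33 or less with P2ry12.

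Among all other 15585 genes tested the pattern most like the mean of the members over 17 libraries was that of Vav1, a signaling protein of blood cells and microglia (r = 0.96). It was followed by Lgi4, Cbs, Plxnb1, Hepacam, Rplp0, Arhgef40, Plcb3, Slc9a3r1 and Hmha1, with the 10 values at 0.94 to 0.96. Without 711 the same 10 genes gave 0.93 to 0.96. The median r was 0.81 for the 20 other microglia genes, 0.81 for the 9 astrocyte genes, 0.53 for the 16 ligands and regulators and 0.00 for all genes. The 5 females and 711 stood apart from the 11 other males in the astrocyte sum (8117 to 9709 CPM against 4406 to 5228 CPM). They also did so in the sum of the other microglia genes (at least 718 CPM against 417 to 616 CPM) and in that of the members (384 to 426 CPM against 269 to 371 CPM). For the member sum this held with scaling to library totals, without the TMM factors. All of these pooled values of r run across both sets of libraries.

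**Figure D5:**
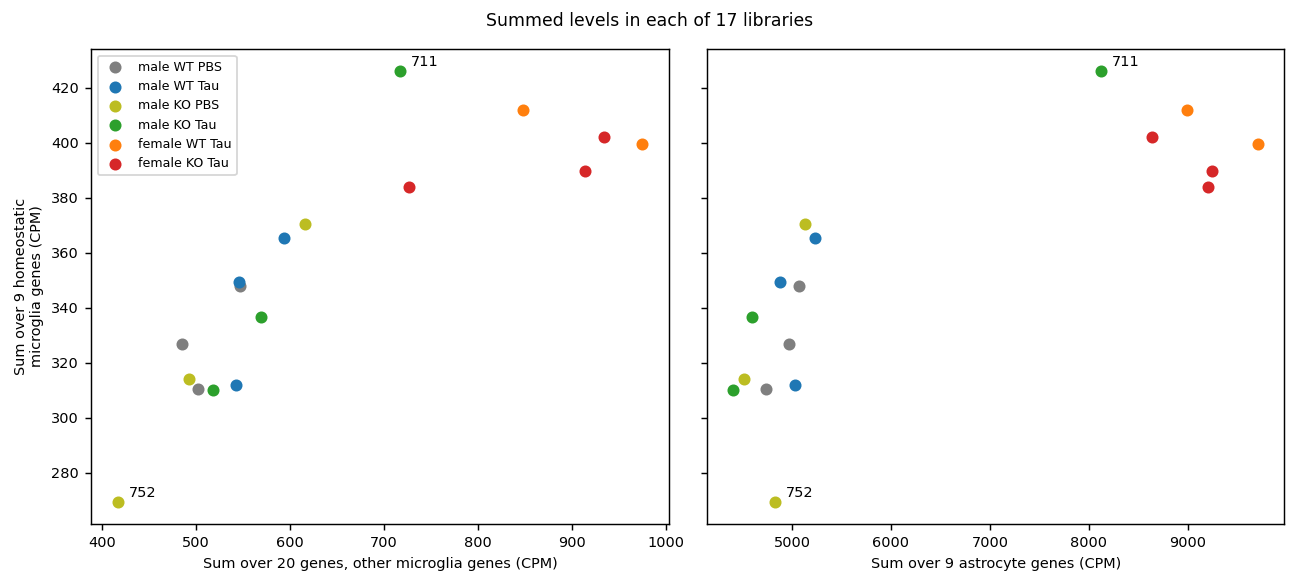
Summed CPM of the 9 members (y axis) against the summed CPM of 20 other microglia genes (left, x axis) and of 9 astrocyte genes (right, x axis), 1 point a library, colored by group. Library 711 has the highest member sum, 426 CPM, and lies with the 5 females in the right panel, while 752 has the lowest, 269 CPM.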

How the data were processed

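Bulk RNA-seq of 17 dorsal hippocampus libraries was used. The authors aligned reads with STAR 2.5.2 to mm10 (GRCm38) and counted them over exons with HTSeq 0.9.1, and the deposited values are raw read counts per gene symbol. The annotation release is not given in the sources used here. Per the labels, the animals had been perfused with paraformaldehyde before RNA extraction. The study's methods describe this perfusion under histology and do not mention it for the RNA. Tests used the quasi-likelihood method of edgeR 4.0.16 under R 4.3.3 (TMM factors, 0.94 to 1.08, filterByExpr with minimum count 10 and minimum total 15, Benjamini-Hochberg adjustment over all genes tested, two-sided). Male contrasts came from 1 fit of 12 libraries, contrasts with females from 1 fit of 11 Tau libraries and the difference among 6 groups from all 17. The tests were run on simulated data first. DESeq2 1.42.0, RLE factors, other filters and other sets of libraries were the alternatives. No pair of libraries was identical. P-values measure the spread between libraries only.

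The 9 members and the 16 other gene lists were chosen with earlier results of these data known, and support nothing independently. Named genes were the members, Acss2, the ligands and regulators, genes of other lists past the FDR or else the 2 with the highest mean CPM, and the 10 tested genes closest to the members' mean by Pearson r on log2 CPM (prior count 2). Further names of the other lists are left out for length. Single values of some list genes are not reported here. Exon lengths are merged GENCODE exons.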

Additional observations from a re-analysis of the deposited data

How the results depend on the processing

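Of 185 recomputed counts of called members 182 were unchanged or within 1.5 times the reported count. All 3 exceptions concerned female against male Tau, where 2 members were called. The count was 0 within WT and 0 within KO (both added after seeing the data) and 0 to 3 with 1 replicate left out, 0 being without female WT Tau 331. Fcrls and Aif1 stayed above 0 under every alternative, at 0.43 to 0.57 and 0.68 to 0.99 on the log2 scale.

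Signs of uncalled members changed in 137 of 1485 recomputed values, for members whose log2 fold change was at most 0.35. With 1 replicate left out, Csf1r ranged from -0.072 to 0.11 for tau in WT males. For male KO Tau over WT PBS, Csf1r ranged from -0.054 to 0.19 and Aif1 from -0.040 to 0.55 (DESeq2 on those groups without 711: -0.050 and -0.036). Over WT Tau, Olfml3 ranged from -0.11 to 0.17 and Aif1 from -0.073 to 0.51 (-0.061 and -0.073). Over KO PBS, Tmem119 ranged from -0.24 to 0.14 and Aif1 from -0.058 to 0.53 (DESeq2 without 712, Tmem119 0.0038, and without 711, Aif1 -0.058). In the male interaction Tmem119 ranged from -0.34 to 0.043 and Aif1 from -0.091 to 0.49. Between the sexes P2ry12 ranged from -0.066 to 0.15, Cx3cr1 from -0.11 to 0.048 and Csf1r from -0.0066 to 0.15. Within KO P2ry12 was -0.13 and Tmem119 -0.033, and Cx3cr1 was 0.087 within WT and 0.036 with DESeq2 without 711. Apart from the dependence on 711, the cause was not tested. No paired analysis was possible because replicate numbers are unique to each group. A fit with only 1 female WT Tau library takes its spread from the remaining groups. With 2 or 3 libraries a group, changes under 2-fold could be missed.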
